A study of Mus musculus with 12 samples.

Results

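The 8 genes described here, of GABAergic neurons and of the ganglionic eminences, were followed across 12 single-colour mouse expression arrays. They were chosen by name: every probe that the array design assigns to Gad1, Gad2, Slc32a1, Nkx2-1, Lhx6, Lhx8, Isl1 or Ebf1 was taken, which gave 11 of 55681 probes for 8 genes. Of the 11 probes 9, covering 7 of the 8 genes, had a measurable level in the cultures. The brightest probe of each of the 7 genes was tested there among 25536 genes. Values for the second Lhx6 and Slc32a1 probes come from a separate fit over 36427 passing probes. Their adjusted p-values therefore rest on another set of tests. Nkx2-1 was not well above background in any culture and has no culture test.

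The arrays held 2 kinds of material. The first 4 arrays carried brain tissue of Sv129s6 embryos of mixed sex at embryonic day 15 (E15): cortex, hippocampus, ventral telencephalon and midbrain, 1 array each. The other 8 arrays carried neurons made from male 129/Ola embryonic stem (ES) cells and collected on day 16 of differentiation in vitro, 2 arrays to a group. All 4 culture groups received a WNT inhibitor (53AH, 2.5 μM) and a BMP inhibitor (LDN193189, 0.25 μM) from day 0. The inhibitors ended on day 11 in the group WiBi_0-11 and stayed until day 16 in WiBi_0-16. They ended on day 8 in CHIR_8-16, which then received the WNT agonist CHIR at 3 μM until day 16, and on day 11 in CHIR_11-16, which received the agonist from day 11 to day 16. The labels give no agonist dose for CHIR_11-16. Their protocol calls WiBi 11 cultures isocortical and CHIR8 cultures hippocampal. The labels say that 3 sets of experiments were pooled for a sample, and do not say whether replicates 1 and 2 of a group came from separate differentiations, so that the p-values below capture array-to-array spread, which may be technical.

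GABA is made from glutamate by 2 enzymes, GAD67 (Gad1) and GAD65 (Gad2), and is loaded into synaptic vesicles by the transporter VGAT (Slc32a1). In the embryonic forebrain most GABAergic neurons are born in the ganglionic eminences, the ventral swellings of the telencephalon, where factors of the Dlx family switch on the Gad genes. Nkx2-1 specifies the medial ganglionic eminence and the preoptic area, and acts upstream of Lhx6 in future cortical interneurons and of Lhx8 in future cholinergic and striatal neurons. Isl1 and Ebf1 are used by striatal projection neurons, and each is also used elsewhere, Isl1 in motor and sensory neurons and Ebf1 in midbrain, mesenchyme and B cells. Levels below are log2 values relative to the 75th percentile of the array. They compare arrays for 1 probe and do not rank probes against each other.

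Each probe is 60 bases long. A stretch of 30 bases from each probe on which a result turns are shown here, 5′ to 3′, because the 3 Lhx6 probes and the 2 Slc32a1 probes did not give the same picture. Capitals in the first Lhx6 probe mark part of a run of 29 bases of alternating A and C, and in the second the hexamer AATAAA, which 10.1% of the 55681 probes hold on the printed strand.

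Lhx6 A_55_P2005903: gctatttatttaaACACACACACACACACA
Lhx6 A_55_P2094158: tcttatttgtgtAATAAAtaaagttaatgc
Lhx6 A_55_P2094149: ggcagcagaatagctgctacatcaagaaca
Slc32a1 A_52_P138926: aaactcatcttgtgcaatgtatccggtcgt
Slc32a1 A_55_P1985286: aattccactgcatgatgaactggacacaca
Gad1 A_52_P144310: gagtgcccttaacataatgatttgaacata

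On mm9, per the file annotation, the whole Lhx6 probes lie on the minus strand at chr2:35937644-35937703, chr2:35937470-35937529 and chr2:35958379-35958438. The first and second are 114 bases apart, and the third lies 20675 bases from the first. The Slc32a1 probes are on the plus strand at chr2:158441324-158441383 and chr2:158440166-158440225, with 1098 bases between them. The Gad1 probe is on the plus strand at chr2:70439699-70439758. Which exon or untranslated region holds each probe was not analysed here.

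The 4 tissues at E15 show where these genes are used in the embryo. With 1 array per tissue there is no test, and the values compare those 4 arrays. Ventral telencephalon, which contains the ganglionic eminences, had the highest level of Nkx2-1, Lhx8 and Isl1 by wide margins. The GABA synthesis and transport genes were high in ventral telencephalon and midbrain alike.

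**Figure D1:**
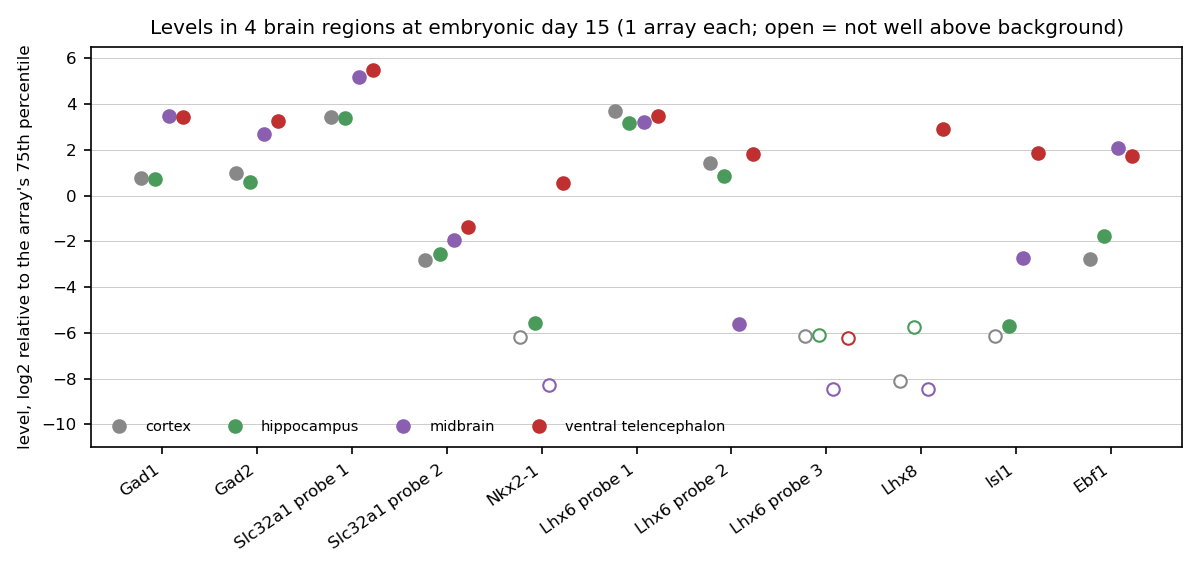
Level of each of the 11 probes in the 4 E15 tissues, as log2 relative to the 75th percentile of the array; each point is 1 array, and open points are not well above background. Nkx2-1, Lhx8 and Isl1 stand out in ventral telencephalon, while Gad1, Gad2, Slc32a1 and Ebf1 are high in ventral telencephalon and midbrain.

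Gad1 read 0.79 in cortex, 0.71 in hippocampus, 3.45 in ventral telencephalon and 3.47 in midbrain. The first pair sat close together and the second pair differed by 0.02, while ventral telencephalon was 6.33-fold above cortex. Gad2 had levels of 0.99, 0.61, 3.27 and 2.69 in the same order, and ventral telencephalon was 4.86-fold above cortex. The brighter Slc32a1 probe had levels of 3.44, 3.41, 5.49 and 5.17, a 4.13-fold excess of ventral telencephalon over cortex. All 3 genes shared this split, with cortex and hippocampus below midbrain and ventral telencephalon.

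The lineage factors were narrower. Nkx2-1 had a level of 0.55 in ventral telencephalon and -5.57 in hippocampus, 69.4-fold lower, and was not well above background in cortex and midbrain. The hippocampal signal was near that array's floor of -5.87, with 6 of 10 spots well above background, so this fold is approximate. Lhx8, the cholinergic lineage factor, read 2.91 in ventral telencephalon and was not well above background in the other 3 tissues, so that the ventral array was at least 406-fold above each of them. That bound sets the ventral level against the dimmest signal still well above background on the other array, or against the probe's own signal where that is higher. Isl1 read 1.85 in ventral telencephalon, -2.73 in midbrain and -5.69 in hippocampus, and was not well above background in cortex. In hippocampus it too was near the floor, with 6 of 10 spots well above background. Ventral telencephalon was 23.9-fold above midbrain for Isl1. Ebf1 had levels of -2.76 in cortex, -1.79 in hippocampus, 1.75 in ventral telencephalon and 2.07 in midbrain, where it followed the GABA genes and not Isl1.

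Of the 8 genes 3 (Nkx2-1, Lhx8 and Isl1) were at least 2-fold higher in ventral telencephalon than in each of the other 3 tissues, against 1.5% of 28176 genes. In ventral telencephalon 7 of 8 were at least 2-fold above both cortex and hippocampus (background 5.27%), all but Lhx6 on its brightest probe. In midbrain 5 of 8 were at least 2-fold above both (background 9.72%). The genes were chosen by name as ventral markers, so these counts describe the tissues and are no test. Tbr1, a factor of pallial glutamatergic neurons, had a level of 5.51 in ventral telencephalon and 5.71 in cortex, and -1.67 in midbrain; its part in the ventral values was not tested.

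Lhx6 depended on the probe. The repeat probe A_55_P2005903 read 3.70, 3.17, 3.50 and 3.23 in cortex, hippocampus, ventral telencephalon and midbrain, and 2.86 to 4.48 over all 12 arrays. The neighbouring probe A_55_P2094158 read 1.41, 0.84, 1.84 and -5.62 in the same tissues. By that probe Lhx6 was 176-fold higher in ventral telencephalon than in midbrain, whereas by the repeat probe it was 1.20-fold higher. The third probe, A_55_P2094149, was not well above background on any of the 12 arrays.

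**Figure D2:**
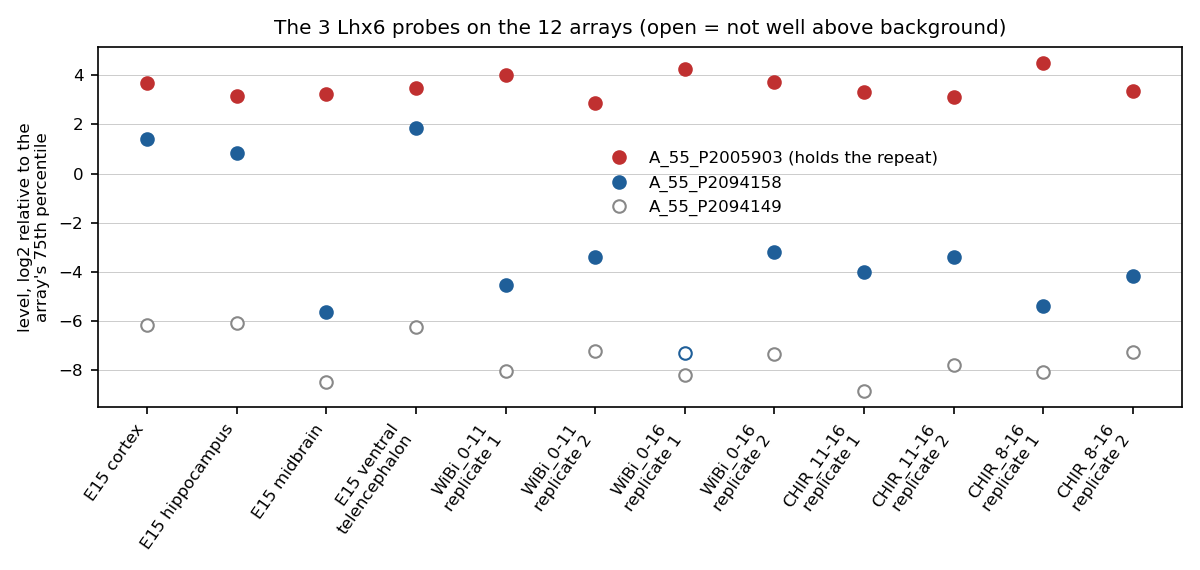
The 3 Lhx6 probes on each of the 12 arrays, as log2 level relative to the 75th percentile; open points are not well above background. The repeat probe stays between 2.86 and 4.48, the second probe spans -7.29 to 1.84, and the third is open throughout.

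In the cultures A_55_P2094158 had a level of -5.38 to -3.20 on 7 of the 8 arrays and was not well above background on the eighth, WiBi_0-16 replicate 1. All 8 culture values lay below the 3 forebrain tissues. The repeat probe had a level of 2.86 to 4.48 in the cultures, which overlapped its tissue values. Of the 110 probes with at least 8 AC or GT units in a row, 97.3% were well above background on all 12 arrays, against 51.6% of all probes. Their median range over the 12 arrays was 0.94, against 1.33 for all probes that were well above background throughout. Counts and ranges over the members use the repeat probe for Lhx6. Tissue arrays shared slide 1 and culture arrays slides 2 and 3, so slide and the difference between tissue and culture cannot be told apart.

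Across the cultures, the GABA genes were present in every group, and the group with the early agonist stood apart from the other 3. Gad1 was 6.45-fold lower in CHIR_8-16 than in WiBi_0-11 and passed the test only with the slide as a block. Slc32a1 had lower values in CHIR_8-16 on both slides without passing the test, and Gad2 was lower than in WiBi_0-11 on 1 slide only. Nkx2-1 was not well above background in any group, and Lhx8 only in CHIR_11-16.

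**Figure D3:**
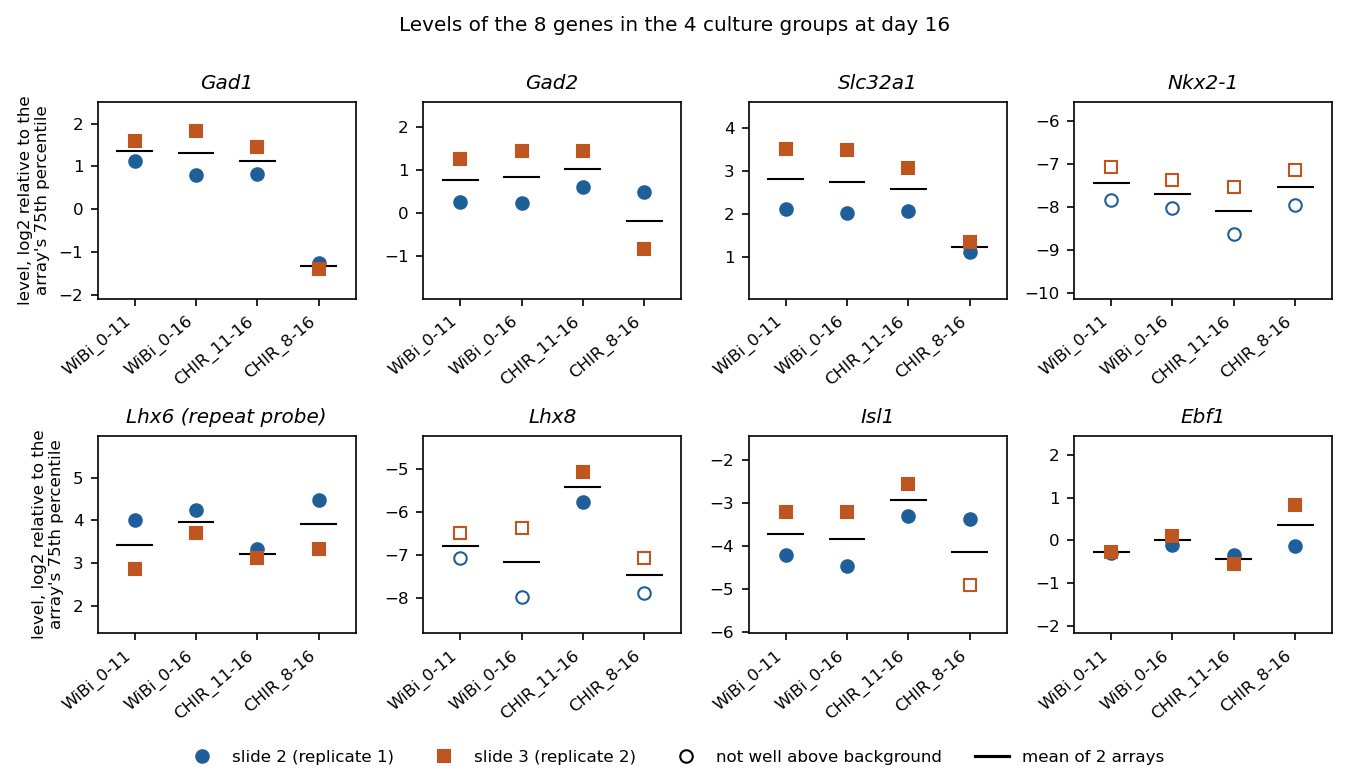
Level of each gene on the 8 culture arrays, as log2 relative to the 75th percentile, with circles for slide 2 and squares for slide 3; bars are means of 2 arrays, open points are not well above background, and every panel spans the same height. The 2 CHIR_8-16 arrays lie below all 6 others for Gad1 and Slc32a1.

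Gad1, the main GABA-synthesising enzyme in the cell body, had a level of 1.13 and 1.60 in WiBi_0-11. In WiBi_0-16 it had 0.79 and 1.82, and in CHIR_11-16 0.82 and 1.45, replicate 1 first. In CHIR_8-16 it had -1.25 and -1.40. The 3 other groups overlapped with each other, with means from 1.14 to 1.36, and the CHIR_8-16 arrays (-1.32 ± 0.10, SD, n = 2) lay below all 6 others; the differences within a slide ran from -3.22 to -2.05. By limma with 1 mean per group, the log2 difference between CHIR_8-16 and WiBi_0-11 was -2.69 (SE 0.41, adjusted p = 0.209). With slide as a block it was the same size (SE 0.28, adjusted p = 0.0473), at -2.38 on slide 2 and -2.99 on slide 3. Against WiBi_0-16 it was -2.63 (6.20-fold lower), with adjusted p = 0.157 without and 0.0364 with the block. Against CHIR_11-16, the cultures that met the agonist 3 days later, it was -2.46 (5.51-fold lower), and it did not pass with (adjusted p = 0.120) or without (0.835) the block.

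The blocked calls of Gad1 rest on few arrays. Against WiBi_0-11 and against WiBi_0-16, leaving out each of the 4 arrays in turn kept the call only without CHIR_8-16 replicate 1, with adjusted p from 0.0448 to 0.272 and from 0.0338 to 0.126. The difference itself stayed between -3.11 and -2.27 against WiBi_0-11, and between -3.06 and -2.21 against WiBi_0-16. Because whole cultures were measured, fewer GABAergic cells and less Gad1 RNA per cell cannot be told apart.

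Gad2, the enzyme concentrated at nerve endings, had a level of 0.27 and 1.26 in WiBi_0-11, 0.24 and 1.44 in WiBi_0-16, and 0.62 and 1.44 in CHIR_11-16. In CHIR_8-16 it had 0.50 on slide 2 and -0.84 on slide 3. The slide 2 value lay within the range of the other groups and the slide 3 value was the lowest of the 8. The difference from WiBi_0-11 was -0.94 (SE 0.63 with the block, adjusted p = 0.427), made of 0.23 on slide 2 and -2.10 on slide 3. Against WiBi_0-16 it was -1.02 and against CHIR_11-16 -1.20, neither passing the test with or without the block. Without CHIR_8-16 replicate 1 the difference from WiBi_0-16 was -2.19 with the block and passed (limma adjusted p = 0.0379).

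Slc32a1, the vesicular GABA transporter, read on its brighter probe 2.13 and 3.52 in WiBi_0-11, 2.02 and 3.49 in WiBi_0-16, and 2.07 and 3.08 in CHIR_11-16. In CHIR_8-16 it had 1.13 and 1.35, below all 6 other arrays. In the other 3 groups slide 3 was higher than slide 2 by 1.01 to 1.47, against 0.22 in CHIR_8-16. The difference from WiBi_0-11 was -1.59 (SE 0.68, adjusted p = 0.540; SE 0.32 and 0.103 with the block). From WiBi_0-16 it was -1.52 (adjusted p = 0.448; 0.0735 with the block), and from CHIR_11-16 -1.34 (0.289 with the block). The dimmer probe A_55_P1985286 gave -0.38 against WiBi_0-11 (SE 0.20 and adjusted p = 0.319 with the block), with overlapping groups. The size of the Slc32a1 difference thus depends on the probe, and its direction in this comparison is the same on both.

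**Figure D4:**
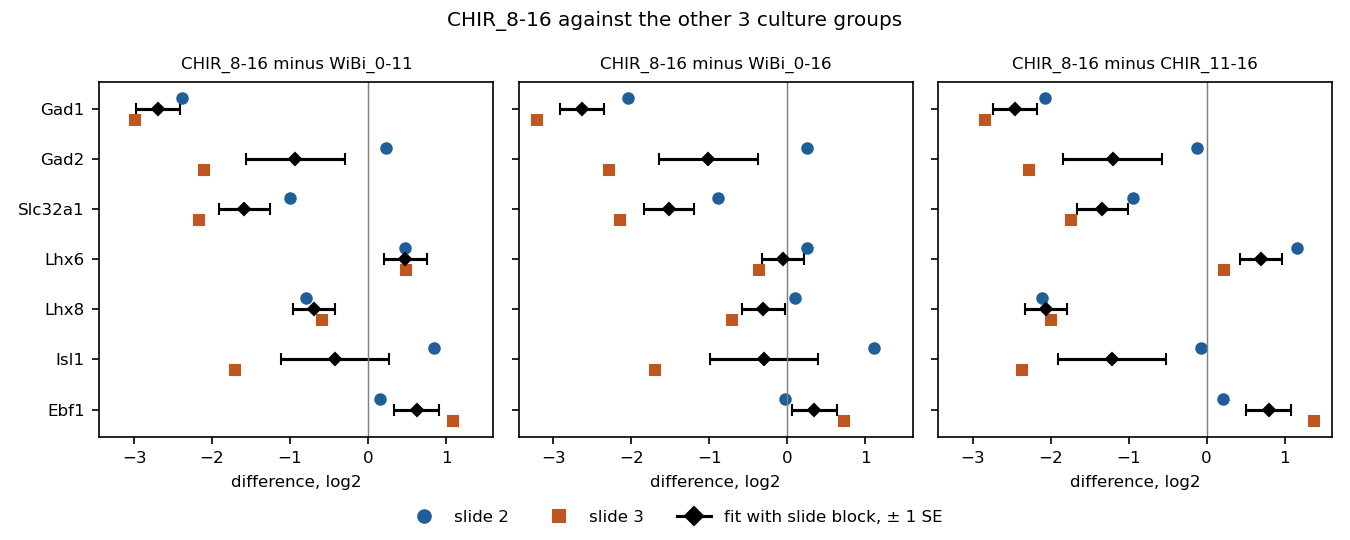
CHIR_8-16 minus each of the other 3 culture groups for the 7 tested genes, in log2; circles and squares are the differences within slides 2 and 3, and diamonds the fit with slide as a block ± 1 SE. Gad1 and Slc32a1 lie below 0 on both slides in all 3 panels, whereas Gad2 and Isl1 are spread widely between slides.

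The factors of the medial eminence lineage were at the edge of detection. Nkx2-1 had -8.63 to -7.06 on the 8 culture arrays, none well above background, over 10 spots per array. Lhx8 was well above background only on the 2 CHIR_11-16 arrays, at -5.76 and -5.07, and it was tested only because of that group. On the other 6 arrays it had -7.97 to -6.36 and was not well above background. Against the dimmest measurable signal CHIR_11-16 was at least 1.08-fold above WiBi_0-16, and no fold can be given against WiBi_0-11 or CHIR_8-16. The fitted difference was 1.36 for CHIR_11-16 minus WiBi_0-11 and 1.75 for CHIR_11-16 minus WiBi_0-16 (limma adjusted p = 0.278 and 0.0852 with the block). For CHIR_8-16 minus CHIR_11-16 it was -2.06 (0.131 with the block). None passed, and the fits use values not well above background.

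By the repeat probe, Lhx6 in CHIR_8-16 differed from WiBi_0-11 by 0.48 (SE 0.27, adjusted p = 0.351 with the block). By A_55_P2094158 the difference was -0.79 (SE 0.84, adjusted p = 0.616 with the block). The sign turned with the probe and neither value passed the test.

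Isl1 and Ebf1 gave no call. Isl1 had a level of -4.22 and -3.22 in WiBi_0-11, -4.48 and -3.21 in WiBi_0-16, -3.30 and -2.55 in CHIR_11-16 and -3.37 and -4.92 in CHIR_8-16, the last not well above background. CHIR_11-16 minus WiBi_0-11 was 0.79 (SE 0.71, adjusted p = 1.0; 0.675 with the block) and CHIR_8-16 minus WiBi_0-11 -0.43 (0.749 with the block), with 0.84 on slide 2 and -1.70 on slide 3. Ebf1 had -0.28 and -0.26 in WiBi_0-11, -0.10 and 0.11 in WiBi_0-16, -0.34 and -0.55 in CHIR_11-16 and -0.13 and 0.83 in CHIR_8-16. It was 0.62 higher in CHIR_8-16 than in WiBi_0-11 on the log2 scale (SE 0.29, adjusted p = 0.279 with the block), and those 2 groups did not overlap. On all 8 culture arrays both Ebf1 and Isl1 read above cortex and hippocampus of the embryo and below ventral telencephalon. For Isl1 the comparison with cortex and hippocampus uses dim values, since cortex was not well above background and hippocampus was near the floor.

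Counts over the members stood as follows. Unadjusted p-values, ranges and medians leave out Lhx8, whose place was fixed by the filter it passed through CHIR_11-16 alone. Between CHIR_8-16 and WiBi_0-11, 0 of 7 members passed limma's test without the block, where 0.0117% of all genes did. With the block 1 of 7 passed, against 0.309% of all genes. An unadjusted p under 0.05 was reached by 1 of the 6 members other than Lhx8 without the block (9.62% of all genes) and 2 with it (22.1%). Between CHIR_8-16 and WiBi_0-16, 0 of 7 passed without the block (0.0157% of all genes) and 1 of 7 with it (1.25%), and 1 and 2 of the 6 had an unadjusted p under 0.05 (12.6% and 24.6% of all genes). Between CHIR_8-16 and CHIR_11-16 the count was 0 of 7 in both limma fits, where 0% and 0.00783% of all genes passed. There 1 and 4 of the 6 had an unadjusted p under 0.05 (3.82% and 11.6% of all genes). With the block these were Gad1 and Slc32a1, with lower values in CHIR_8-16, and Ebf1 and the Lhx6 repeat probe, with higher ones (0.69 for the latter, where A_55_P2094158 differed by -1.08).

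Of the 6 members 2 (Gad1 and Slc32a1) lay below WiBi_0-11 with no overlap (17.9% of all genes did), 2 lay below WiBi_0-16 (16.5%) and 4 (Gad1, Gad2, Slc32a1 and Isl1) below CHIR_11-16 (14.8%). In the other direction Ebf1 lay above WiBi_0-11 with no overlap, and no member lay above WiBi_0-16. Ebf1 and the Lhx6 repeat probe lay above CHIR_11-16, whereas Lhx6 probe A_55_P2094158 lay below it. The share of all genes that lay above is not reported here. The median of the 6 was -0.68 against WiBi_0-11, -0.66 against WiBi_0-16 and -1.21 against CHIR_11-16, where the median over all genes was 0.05, 0.01 and 0.03.

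The later agonist and the length of inhibition gave no call. For CHIR_11-16 against WiBi_0-11, 0 of 7 members passed in limma without (0% of all genes) and with the block (0.0117%). None of the 6 members other than Lhx8 had an unadjusted p under 0.05 in either fit (4.70% and 12.5% of all genes), and their differences ran from -0.25 to 0.79. For CHIR_11-16 against WiBi_0-16, 0 of 7 passed in both fits (0% of all genes in each), with 0 and 1 of the 6 at an unadjusted p under 0.05 (10.1% and 22.4% of all genes) and differences from -0.75 to 0.92. That 1 was the Lhx6 repeat probe at -0.75, where A_55_P2094158 differed by 1.56. The 1.56 was made of 3.29 on slide 2 and -0.18 on slide 3. On slide 2 the WiBi_0-16 array was not well above background for A_55_P2094158, so this probe gives no opposite direction. For WiBi_0-16 against WiBi_0-11, 0 of 7 passed without (0% of all genes) and with the block (0.0117%). None of the 6 had an unadjusted p under 0.05 (2.62% and 10.8% of all genes). Their differences ran from -0.13 to 0.54, the highest that of the Lhx6 repeat probe. A_55_P2094158 differed by -1.27, made of -2.75 on slide 2, through the same dim WiBi_0-16 array, and 0.20 on slide 3. For Gad1 the CHIR_11-16 difference from WiBi_0-11 was -0.23 (SE 0.28 with the block), against -2.69 for CHIR_8-16; these comparisons share the WiBi_0-11 arrays, and the direct test between the 2 agonist groups is the adjusted p of 0.120 above.

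Setting the 4 agonist arrays against the 4 inhibitor-only arrays, 0 of 7 members passed limma's test without (0.00783% of all genes) or with the block (3.23%), and none had an unadjusted p under 0.05 (15.3% and 22.5% of all genes). Gad1 differed by -1.43 (SE 0.66, adjusted p = 0.361; 0.258 with the block) and Slc32a1 by -0.88 (SE 0.53, adjusted p = 0.520; 0.249 with the block). The 2 agonist groups lay far apart for Gad1, so that this mean covers unlike groups.

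Progenitor factors of the ganglionic eminences, which act before the GABA genes, were lower in CHIR_8-16 than in WiBi_0-11 for 15 of 16 measured genes, with 0 calls by limma without the block and 2 with it. The list's median difference was -1.67, at -0.98 on slide 2 and -2.57 on slide 3. Sp8, a zinc finger factor of the lateral and caudal eminences, fell by 3.82 on the log2 scale (adjusted p = 0.239 without and 0.0167 with the block). Olig2, a factor of ventral and oligodendrocyte progenitors, fell by 3.32 (0.210 and 0.0389). Dlx1, which activates the Gad genes, differed by -3.45 (0.126 with the block). Sp8 had a level of -3.73 and -2.16 in CHIR_8-16 and 0.35 to 1.85 on the other 6 arrays, with no overlap. Against WiBi_0-16 the same 2 genes were called with the block, and against CHIR_11-16 Sp8 alone (0.0346). Without each array in turn, the Sp8 call held in 2 of 4 fits against WiBi_0-11, 1 of 4 against WiBi_0-16 (without CHIR_8-16 replicate 1) and 0 of 4 against CHIR_11-16. The Olig2 call held in 0 of 4 against WiBi_0-11 and 0 of 4 against WiBi_0-16.

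**Figure D5:**
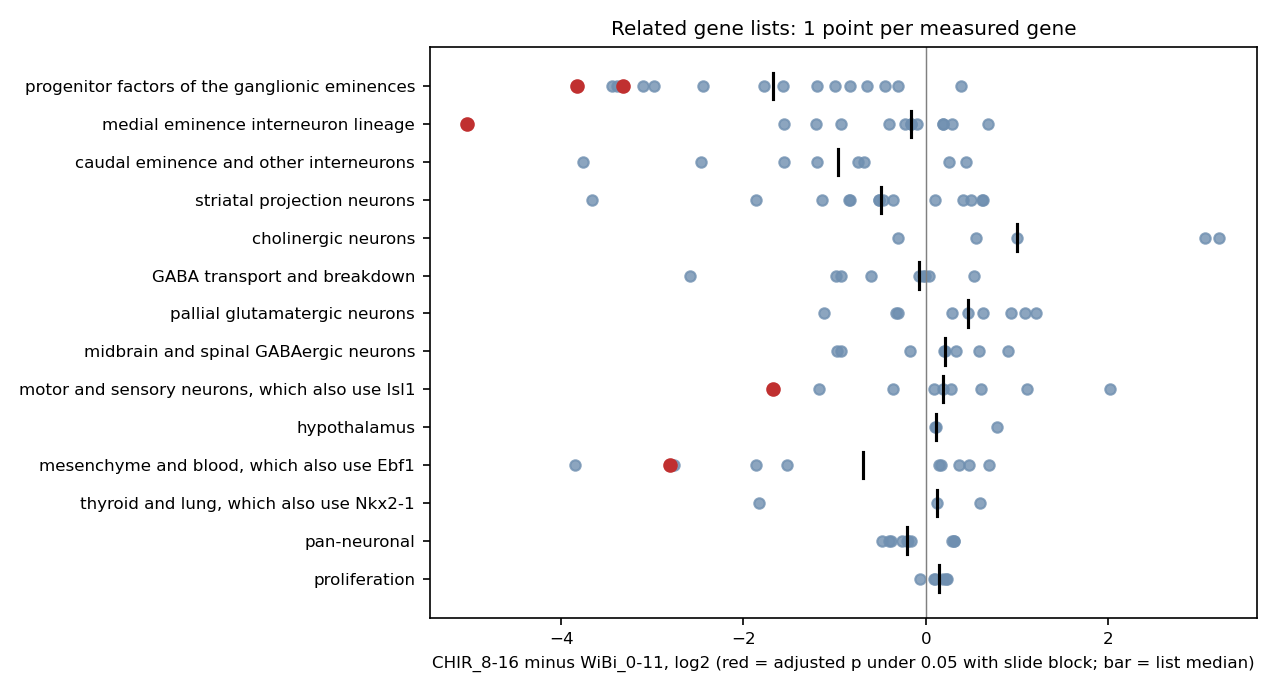
CHIR_8-16 minus WiBi_0-11 in log2 for the measured genes of 14 lists, 1 point per gene, with red points for adjusted p under 0.05 with slide as a block and a bar at the list median. The progenitor factors lie mostly below 0, with a median of -1.67, while the pan-neuronal genes sit near 0.

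In the medial eminence interneuron list 13 of 14 genes were measured, and 9 were lower and 4 higher in CHIR_8-16 than in WiBi_0-11 (median -0.16), with 0 calls by limma without the block. With it Npy, the neuropeptide of a class of interneurons, was called: it was not well above background in CHIR_8-16 and at -0.85 and -0.89 in WiBi_0-11, at least 22.7-fold higher there (adjusted p = 0.0167). Without each array in turn that call held in 2 of 4 fits. Erbb4, the neuregulin receptor of migrating interneurons, fell by 1.36 against WiBi_0-16 (adjusted p = 0.0466 with the block), a call that held in 1 of 4 fits. Sst, the peptide somatostatin, differed by -1.56 from WiBi_0-11 (0.113 with the block), and Nos1 had no passing probe.

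GABA transport and breakdown genes were lower in 7 of 9 cases in CHIR_8-16 against WiBi_0-11 (median -0.07), with 0 calls in either limma fit. Slc6a11, the glial GABA transporter GAT3, differed by -2.58 (0.0888 with the block). Interneuron genes of the caudal eminence were lower in 6 of 8 cases (median -0.96) and striatal projection neuron genes in 9 of 14 (median -0.49), with 0 calls in either limma fit. In the first list Npas1 differed by -3.76, and Adarb2 was not well above background in CHIR_8-16 and at least 2.09-fold higher in WiBi_0-11. In the second Penk, the precursor of enkephalin, differed by -3.66 and Drd1, a dopamine receptor, by -1.87. Of 5 measured cholinergic genes 4 were higher (list median 1.01 on slide 2 and 0.99 on slide 3, 0 calls in either fit), led by Gbx2 at 3.22 and Zic4 at 3.07. The Gbx2 difference was 1.88 on slide 2 and 4.56 on slide 3, and that of Zic4 1.16 and 4.97. Gbx2 was well above background on 1 of 2 WiBi_0-11 arrays.

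Markers of other cells were summed on each array in the same way. The sums were taken on unlogged levels and so follow the genes with the brightest probes. The summed level of 10 pan-neuronal genes was 8.49 to 8.52 in CHIR_8-16 and 8.37 to 8.66 in the other groups. That of 9 pallial glutamatergic genes was 5.91 to 6.27 in CHIR_8-16 and 5.44 to 5.98 elsewhere, and 6 of 9 were higher than in WiBi_0-11 with 0 calls. The 8 measured genes of midbrain and spinal GABAergic neurons summed to 2.69 to 3.49 in CHIR_8-16 and 2.74 to 4.66 elsewhere. Most of that sum was Lhx5, which alone had 4.21 on WiBi_0-11 replicate 1, where the list summed to 4.33. In CHIR_8-16 3 of 8 were lower than in WiBi_0-11 with 0 calls, led by Lhx5 at -0.97. Helt of that list had no passing probe. The 16 progenitor factors summed to 3.52 to 4.37 in CHIR_8-16 and 5.06 to 5.85 elsewhere. Of 10 mesenchyme and blood genes 5 were lower, all of them genes of fibroblasts and pericytes. Col3a1, a fibrillar collagen, fell by 2.81 (0.0448 with the block, in 0 of 4 fits without 1 array). Pdgfra, a growth factor receptor of fibroblasts, differed by -3.85 (0.0523 with the block), Col1a1 by -2.77, Col1a2 by -1.86 and Pdgfrb by -1.52, none of which passed. The list summed to 2.18 to 2.65 in CHIR_8-16, 3.799 to 3.853 in WiBi_0-11 and 2.21 to 3.03 in the other groups. Of 9 motor and sensory genes 3 were lower (median 0.19). Of 6 proliferation genes 5 were higher (median 0.15), of 3 measured hypothalamic genes 3 (median 0.11) and of 3 measured thyroid and lung genes 2 (median 0.12), with 0 calls in any. The part of these markers in the Gad1 and Slc32a1 values was not tested.

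The genes whose pattern over the 8 culture arrays was most like that of a member, after each slide's mean was taken off, were named from 1378 genes that varied at least 2-fold on each slide. For Gad1 they were Mef2c (Pearson r 0.996), Trpc4 (0.996) and Cacna2d3 (0.994), and for Slc32a1 Cacna2d3 (0.982), Il1rapl2 (0.980) and Bmper (0.980). For Gad2 they were Dlx5 (0.950), Dlx1as (0.935) and Sp9 (0.925). Lhx8 was closest to Fam72a (0.935), Isl1 to Rmi2 (0.870), Ebf1 to Prickle2 (0.897) and the Lhx6 repeat probe to Acot3 (0.967). Of the culture arrays only the 2 of CHIR_11-16 were well above background for Lhx8, so its value rests largely on dim readings. Among the members, Gad1 and Slc32a1 correlated at 0.97, Gad1 and Gad2 at 0.76, and Gad2 and Isl1 at 0.90. The 8 arrays share slides and treatments, and correlations chosen as the highest of many genes are a description only.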

How the data were processed

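The members and gene lists were chosen with earlier results of these data known. Per the labels, Cy3-labelled RNA was hybridised to Agilent arrays of 60-base probes. Per the file headers, the authors' scanner files hold spot intensity values from Feature Extraction 10.7.3.1, which subtracts background within an array; the submitters' processing notes name version 9.1 and limma. The deposited series table holds log2 values and served as an alternative, as did normexp on the median signals. Flags for outliers and for signal well above background came from the same files. Levels were log2 processed signal minus each array's 75th percentile, averaged over spots. A probe was kept if a culture group had it well above background on its 2 arrays, and a gene was represented by its brightest kept probe (25536 genes). Arrays had 59.1% to 71.2% of spots well above background and 0 saturated spots; their number limits the precision. Groups were compared in limma 3.58.1 (R 4.3.3; lmFit, eBayes) over the 8 culture arrays, with Benjamini-Hochberg adjusted p under 0.05, 2-sided. Replicates 1 lay on slide 2 and replicates 2 on slide 3, and deviations of same-slide arrays correlated at 0.578 to 0.667 over 6 pairs of groups, so the replicate block (slide) was fitted beside the unblocked model; with it the Gad1 difference from WiBi_0-11 was -2.69. The code was tested on simulated data. Named were the 8 members, up to 4 called genes per list and comparison, the 2 largest list differences between CHIR_8-16 and WiBi_0-11, and the 3 genes most like each member. The values of some list genes that this rule names are not reported here.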

Additional observations from a re-analysis of the deposited data

Results flagged for a closer look

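Among the 4 agonist arrays the Lhx6 repeat probe A_55_P2005903 had a level of 4.48 on CHIR_8-16 replicate 1, apart from the other 3. It was the 1 such case in 18 groups of 4 tested, where chance gives about 1 in 20. On the same array the other Lhx6 probe with a signal, A_55_P2094158, had -5.38. The flagged array lay on slide 2, where the repeat probe read higher than on slide 3 in every culture group. Its other slide 2 levels were 4.01 in WiBi_0-11, 4.24 in WiBi_0-16 and 3.33 in CHIR_11-16. The part of the slide in this flag was not tested.

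For 3 probes the readings of the 2 agonist groups fell on opposite sides of WiBi_0-11 on both slides. No test of these opposite directions was run, beyond the comparison of the 2 agonist groups, which passed for none of them. For Lhx8 the CHIR_8-16 difference was -0.80 on slide 2 and -0.59 on slide 3, and the CHIR_11-16 difference 1.32 and 1.41. These Lhx8 values give no direction: no WiBi_0-11 or CHIR_8-16 array was well above background for this probe, it was tested only through CHIR_11-16, and with dim values at the floor CHIR_11-16 minus WiBi_0-11 was -0.078. For Lhx6 probe A_55_P2094158 the values were -0.84 and -0.75 against 0.55 and 0.027. For Ebf1 they were 0.15 and 1.09 against -0.055 and -0.29.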

How the results depend on the processing

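The number of members called was 0 in each comparison under every alternative without the replicate block. With the replicate block it was 1 (Gad1) against WiBi_0-11 and against WiBi_0-16. It stayed 1 in both with median or quantile scaling, the deposited table, a filter on all 8 arrays, the mean of a gene's passing probes, repeat probes left out, or dim values at the floor. It was 2 with a trended robust prior in both, the second gene being Slc32a1, and with normexp it was 1 against WiBi_0-11 and 2 against WiBi_0-16. It was 0 with no filter and with only the compared groups in the fit. CHIR_8-16 against CHIR_11-16 gave 1 with normexp or the trended prior and the block, and 0 otherwise. Leaving out 1 array gave 0 to 1 members against WiBi_0-11 and 0 to 3 against WiBi_0-16, the 3 without CHIR_8-16 replicate 1.

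Some uncalled differences changed sign. Lhx6 between CHIR_8-16 and WiBi_0-11 was -0.16 as the mean of its probes, -0.79 without the repeat probe and -0.091 to 1.05 without 1 array. Isl1 ran from -1.20 to 0.34 without 1 array. With dim values at the floor Lhx8 was 0.046 for CHIR_8-16 minus CHIR_11-16 and -0.078 for CHIR_11-16 minus WiBi_0-11. Median scaling moved the median of all genes by -0.13 (CHIR_8-16 against WiBi_0-11), -0.16 (against CHIR_11-16) and 0.12 (CHIR_11-16 against WiBi_0-16). The cause of these changes was not tested. Leaving out repeat probes, the floor for dim values, normexp on median signals and the settings combined with the block were chosen after seeing the data. With 2 arrays a group, 0 calls leave changes of the sizes given here undecided.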

Other observations

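Some genes of the fixed lists passed the test in comparisons not described above, each in limma with slide as a block and none without it. Over the 4 agonist arrays against the 4 inhibitor-only arrays, Npy was lower by a log2 difference of -3.56 (adjusted p = 0.0437) and Sst by -1.38 (0.0472), both interneuron neuropeptides. Calb2, the calcium-binding protein calretinin, differed by -1.08 (0.0396) and Lhx5 by -1.01 (0.0329). Higher were Gbx2 by 2.74 (0.0466), Isl2 by 1.22 (0.0449), Neurod1 by 0.99 (0.0369) and the chemokine receptor Cxcr4 by 0.64 (0.0452). Each of these 8 calls was lost in all 8 fits that left out 1 array. Npy was well above background on 2 of the 4 agonist arrays, and its level was -4.23 and -3.21 in CHIR_11-16. Gbx2 and Isl2 were each well above background on 2 of the 4 inhibitor-only arrays, so their differences rest partly on dim values.

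Against WiBi_0-16, CHIR_8-16 was lower in Npy, with a bound of at least 13.5-fold and a blocked adjusted p of 0.0228. It was also lower in Pdgfra (log2 difference -3.75, 0.0382) and Lhx5 (-1.23, 0.0318). Sim1, a hypothalamic factor, had a fitted difference of 2.59 (blocked adjusted p 0.0407), for which no fold is given. It was well above background on 1 of 2 CHIR_8-16 arrays and on 0 of 2 WiBi_0-16 arrays. Sim1 passed the filter only through CHIR_11-16, and its fit uses dim values. The Npy call held in 1 of 4 fits that left out 1 array and the others in 0 of 4.

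The list genes with the largest differences between CHIR_8-16 and WiBi_0-11 that are not given above did not pass the test. They were Pdgfra at -3.85, Pou4f1 at 2.02, Foxa2 at -1.83, Emx1 at 1.21, Slc17a7 at -1.12, Gata3 at -0.93, Sim1 at 0.78, Tg at 0.60, Syn1 at -0.48, Stmn2 at -0.40, Cdk1 at 0.23, Ccnb1 at 0.22 and Pomc at 0.11 on the log2 scale. Of these, Sim1 was well above background on 1 of 2 arrays in each of the 2 groups.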
